A study of Mus musculus with 4 samples.

Results

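The genes described here are 52 genes of DNA repair and of the DNA damage checkpoint, listed by name in 9 groups: nucleotide excision repair, homologous recombination, Fanconi anaemia proteins, RecQ helicases, end joining, translesion synthesis, base excision and single-strand break repair, mismatch repair, and the checkpoint. They were listed by function, with earlier results of these data known, and they are 52 of the 20832 genes with a probe on the array. Of these, 51 passed the filter on dim probes, which asks for a signal well above background in both samples of a population, and they were tested among 11958 genes in all. The exception was *Chek1*, which encodes a checkpoint kinase. The other 51 were above background on every one of the 4 arrays.

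Gene expression was measured in B16-F10 cells, a metastatic mouse melanoma line. The cells had been sorted into Met-low and Met-high populations by the amount of the receptor Met on their surface, and each population was then kept for 3 days in culture without any other treatment before total RNA was prepared. Each population gave 2 independently prepared RNA samples, and each sample was hybridised to its own one-colour array. Both populations come from a single cultured line and were separated by the gate alone, with no engineered genetic change. Levels are log2 intensities set against each array's 75th percentile, and differences are the Met-high mean minus the Met-low mean on that log2 scale, so a negative difference marks a gene higher in Met-low cells. Levels of separate genes come from separate probes and were not compared with each other.

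Cells repair DNA by several routes, each matched to a kind of damage. Nucleotide excision repair removes bulky lesions such as those made by ultraviolet light, base excision repair replaces single damaged bases, and mismatch repair corrects copying errors. Breaks through both strands are rejoined directly by end joining or copied from the sister chromatid by homologous recombination, while Fanconi anaemia proteins deal with crosslinks between strands and translesion polymerases copy past damage that remains. Checkpoint kinases hold the cell cycle while repair proceeds. In pigment cells, which are exposed to ultraviolet light, excision repair is the route known for removing sunlight damage.

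All arrays shared 1 slide and 1 scan, and each population took a neighbouring pair of positions, so that effects of position and of population cannot be told apart. Array intensities had a 75th percentile of 858 to 1331, and 0 of 43020 spots were saturated. *Met* (NM_008591) itself was at -0.26 and -0.89 in Met-low cells and at 1.03 and -0.43 in Met-high cells, a difference of 0.87 with an adjusted p of 0.333 from limma. Met-high replicate 2 therefore lay between both Met-low samples, and results are also given without it. All 8 melanocyte lineage markers were detected, with a summed linear level of 1450 to 1767 in Met-low and 1554 to 1770 in Met-high cells. Of 6 fibroblast markers only *Col1a2* passed the filter (difference -1.10, standard error 0.17, adjusted p = 0.0311), and the sum of this list was 0.628 to 0.685 in Met-low and 0.318 to 0.361 in Met-high cells, in the same direction as the repair genes higher in Met-low cells. Of 4 endothelial markers *Kdr* and *Pecam1* passed the filter and *Cdh5* and *Tek* were above background on no array, with a sum of 5.48 to 6.31 in Met-low and 6.72 to 8.44 in Met-high cells. The 4 leukocyte markers with a probe summed to 1.497 to 1.714 in Met-low and 1.44 to 2.56 in Met-high samples, with *Ptprc* above background on no array, and the 4 keratinocyte markers to 0.116 to 0.209 in the former and 0.106 to 0.126 in the latter. The part of these marker levels in the results below was not tested. In bulk samples, fewer cells of a type and less RNA per cell cannot be told apart.

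By limma, 5 of the 51 repair genes had an adjusted p under 0.05, against 5.77% of all genes tested. Of the 51, 4 (7.84%) were higher in Met-low cells, against 3.82% of all genes, and 1 of 51 (1.96%) was higher in Met-high cells, against 1.95%. The former were *Rev3l*, *Ercc5*, *Xpa* and *Brca2*, and the latter was *Fanca*. *Xpa* and *Brca2* had been named by the study from these same arrays, so the share higher in Met-low cells is not independent evidence. The share higher in Met-high cells was thus that of the array as a whole. At an unadjusted p under 0.05 the counts were 11 genes (21.6%) higher in Met-low and 14 (27.5%) higher in Met-high cells, against 11.9% and 14.3% of all genes. By the 2-fold rule that the methods used, without a test, 4 repair genes (*Rev3l*, *Brca2*, *Ercc6* and *Ercc5*) were higher in Met-low cells and 0 in Met-high cells, against 5.29% and 2.43% of all genes. *Xpa*, which the study named, fell short at 1.95-fold on the probe used, while a further probe gave a log2 difference of -1.02, past 2-fold.

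The difference lay within 0.5 on the log2 scale in 28 of the 51 repair genes (54.9%, against 72.6% of all genes), and it ranged from -1.43 for *Rev3l* to 0.98 for *Fanca*. The mean was higher in Met-low cells in 19 genes and higher in Met-high cells in 32 (62.7%, against 59.5% of all genes). The median difference was 0.22, beside 0.10 over all genes tested. Without overlap, the Met-low pair was above the Met-high pair in 16 repair genes (31.4%, against 22.6% of all genes), the Met-high pair was above in 28 (54.9%, against 35.8%), and the populations overlapped in 7. The standard error of a difference was 0.175 at the median of the members, so that a difference of about 0.443 was the median reach of its 95% interval to each side. With 2 arrays against 2, an exact permutation test cannot give a two-sided p below 0.333, and none is given. A difference that missed the threshold is not thereby shown to be absent.

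**Figure D1:**
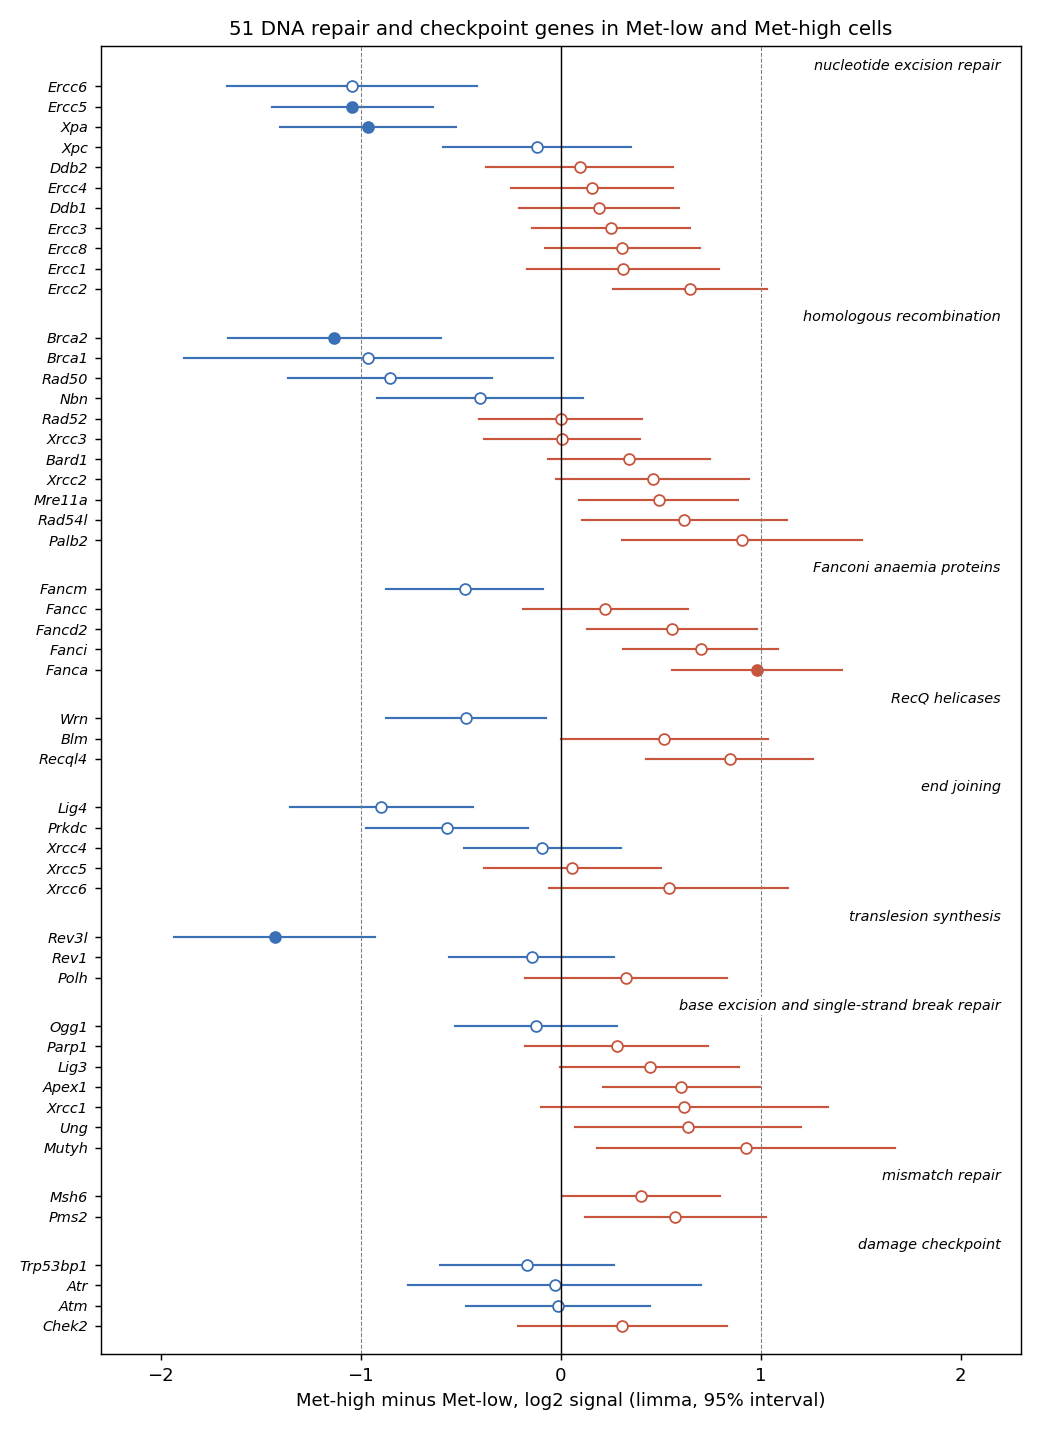
Log2 difference, Met-high minus Met-low, of the 51 tested repair genes, arranged by repair route, with bars for the 95% interval of limma, filled points for an adjusted p under 0.05, blue for genes with the higher mean in Met-low cells and red for the reverse. Dashed lines mark 2-fold. The differences run from -1.43 (*Rev3l*) to 0.98 (*Fanca*), and 32 of 51 lie on the Met-high side.

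Promoter sequences are shown for the called genes that have an entry among the RefSeq promoter windows (assembly GRCm38.p6), since these are the members on which the counts above turn. Each is the 250 bases before the annotated start, 5′ to 3′ on the gene's strand, at chr4:46196312-46196561 on the minus strand for *Xpa*, chr1:44147494-44147743 on the plus strand for *Ercc5*, chr5:150522371-150522620 on the plus strand for *Brca2* and chr8:123318577-123318826 on the minus strand for *Fanca*. Capitals mark matches, on either strand, to CCAAT (the NF-Y box), TTTGAA (the CHR element) or one of TTTCCCGC, TTTCGCGC, TTTGCCGC and TTTGGCGC (E2F sites).
Xpa: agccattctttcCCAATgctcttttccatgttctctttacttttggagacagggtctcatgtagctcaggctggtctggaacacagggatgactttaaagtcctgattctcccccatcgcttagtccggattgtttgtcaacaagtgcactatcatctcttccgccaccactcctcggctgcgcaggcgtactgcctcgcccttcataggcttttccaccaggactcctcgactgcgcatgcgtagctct
Ercc5: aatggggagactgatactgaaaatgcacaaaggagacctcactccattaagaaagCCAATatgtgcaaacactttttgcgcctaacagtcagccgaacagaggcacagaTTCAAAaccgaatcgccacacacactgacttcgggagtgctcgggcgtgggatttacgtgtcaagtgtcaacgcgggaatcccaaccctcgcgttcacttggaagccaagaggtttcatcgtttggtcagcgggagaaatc
Brca2: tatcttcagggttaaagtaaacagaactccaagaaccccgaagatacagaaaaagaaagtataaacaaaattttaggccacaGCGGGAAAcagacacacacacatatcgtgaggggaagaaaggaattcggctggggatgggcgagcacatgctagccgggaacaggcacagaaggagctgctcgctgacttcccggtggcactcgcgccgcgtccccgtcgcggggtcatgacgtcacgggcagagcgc
Fanca: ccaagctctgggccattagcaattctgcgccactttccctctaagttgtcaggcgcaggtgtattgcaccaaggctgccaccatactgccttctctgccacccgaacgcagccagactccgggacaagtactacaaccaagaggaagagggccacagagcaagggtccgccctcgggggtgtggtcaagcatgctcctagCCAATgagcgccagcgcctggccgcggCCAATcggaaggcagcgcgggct
The *Xpa* window holds a CCAAT box 238 bases before the start, and that of *Fanca* holds one 50 and one 23 bases before it. *Ercc5* has a CCAAT box at 195 bases and a CHR match on the opposite strand at 141 bases. *Brca2* has an E2F match on the opposite strand at 168 bases.

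Windows of 300 bases, which add the 50 bases after the start, were given for 41 of the 52 genes. An E2F match stood in 5 of these 41 (12.2%), in *Bard1*, *Brca2*, *Chek2*, *Msh6* and *Xrcc6*, against 2.26% of all 32851 windows and 4.62% of the tested genes with a window. Of these 5, *Brca2* was higher in Met-low cells and the other 4 had their higher mean in Met-high cells, with differences of 0.31 to 0.54 that did not pass the test. CCAAT stood in 24 of 41 (58.5%), against 37.4% of all windows and 43.2% of the tested genes. The mean was higher in Met-high cells in 18 of these 24 and in 9 of the 16 tested genes whose window lacks it, with median differences of 0.36 and 0.10. Over all tested genes with a window the medians were nearly alike, at 0.11 with CCAAT and 0.10 without. TTTGAA stood in 2 of 41 (4.88%), in *Bard1* and *Ercc5*, against 17.9% of all windows and 14.5% of the tested genes. No match to one motif shared bases with a match to another. These matches are a description of the letters in the window.

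Among the translesion synthesis genes, *Rev3l* had the largest difference of the 51 genes tested here and was higher in Met-low cells. *Rev3l* (NM_011264), the catalytic subunit of DNA polymerase zeta, was at 0.01 and 0.27 in Met-low cells and at -1.45 and -1.12 in Met-high cells. Both Met-low samples were above both Met-high samples, with a wide gap between the populations. The means were 0.14 ± 0.19 and -1.29 ± 0.23 (SD, n = 2 each), so that *Rev3l* was 2.69-fold higher in Met-low cells (difference -1.43, standard error 0.20, adjusted p = 0.0236 from limma). This call held with each array left out in turn, at adjusted p-values of 0.00919 to 0.0345. Its partner *Rev1*, a scaffold for the translesion polymerases, differed by -0.15 (adjusted p = 0.605). *Polh*, the polymerase that copies past ultraviolet lesions, differed by 0.33 (adjusted p = 0.350).

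In nucleotide excision repair, 2 of 11 genes passed the test as higher in Met-low cells (18.2%, against 3.82% of all genes). These were *Ercc5* and *Xpa*. None passed in the other direction in limma, where *Ercc2* alone had an unadjusted p under 0.05. *Ercc5* (NM_011729), which encodes the nuclease XPG that cuts on the 3′ side of a lesion, was at -0.37 and -0.34 in Met-low cells and at -1.31 and -1.48 in Met-high cells. The arrays of each population lay close together and the populations were well apart. The means of -0.35 ± 0.02 and -1.40 ± 0.11 (SD, n = 2 each) made *Ercc5* 2.06-fold higher in Met-low cells (difference -1.04, standard error 0.16, adjusted p = 0.0294). The call held without Met-high replicate 1 (adjusted p = 0.0330) and was lost without Met-low replicate 1 (0.0691), Met-low replicate 2 (0.0687) or Met-high replicate 2 (0.0724).

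*Xpa* (NM_011728), the protein that checks the damaged strand and gathers the other excision factors, was at 1.07 and 1.29 in Met-low cells and at 0.13 and 0.30 in Met-high cells. Both Met-low samples were again above both Met-high samples. *Xpa* was 1.95-fold higher in Met-low cells (difference -0.96, standard error 0.17, adjusted p = 0.0431), and a further probe gave -1.02. The call was lost without Met-low replicate 1 (adjusted p = 0.0664), Met-low replicate 2 (0.123), Met-high replicate 1 (0.0846) or Met-high replicate 2 (0.0581). *Xpa* and *Brca2* are among the genes that the study itself named from these arrays, so they are not independent evidence of a direction.

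*Ercc6*, which encodes the CSB protein of transcription-coupled repair, was past 2-fold without passing the test. It was at -2.84 and -3.38 in Met-low cells and at -4.32 and -4.00 in Met-high cells, without overlap. The difference was -1.05 (standard error 0.25, adjusted p = 0.0765), it passed the test without Met-low replicate 2 (adjusted p = 0.0320), and with a normexp background correction it was -0.35 (adjusted p = 0.281). *Ercc2*, the XPD helicase of the TFIIH complex, was at 0.59 and 0.61 in Met-low cells and at 1.28 and 1.21 in Met-high cells. Here the order was the other way round, with tight pairs and no overlap. Its difference was 0.65 (standard error 0.15, adjusted p = 0.0765).

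The remaining excision genes lay between -0.12 and 0.31. They were the damage sensors *Xpc*, *Ddb1* and *Ddb2*, the TFIIH helicase *Ercc3*, the 5′ nuclease pair *Ercc1* and *Ercc4*, and *Ercc8*, the CSA partner of CSB. None of these passed the test, at an adjusted p of 0.269 or above. The median of the 11 genes was 0.16, with 4 means on the Met-low and 7 on the Met-high side. The 2 called genes, together with *Ercc6* at -1.05, therefore stood apart from most of their group.

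In homologous recombination the genes were spread in both directions, with a median of 0.01 over 11 genes that changed sign with the scaling and was -0.14 with the percentile taken over detected probes. Only *Brca2* passed the test (1 of 11 genes, 9.09%, against 3.82% of all genes called higher in Met-low cells). *Brca2* (NM_009765), a tumour suppressor needed for repair of double-strand breaks by recombination, was at -0.59 and -0.52 in Met-low cells and at -1.92 and -1.45 in Met-high cells. Both Met-high samples were lower, and they were farther from each other than the Met-low samples were. It was 2.19-fold higher in Met-low cells (difference -1.13, standard error 0.21, adjusted p = 0.0462). The call held without Met-high replicate 2 (adjusted p = 0.0153), the array whose *Met* level lay between the Met-low samples, and was lost without Met-low replicate 1 (0.0703), Met-low replicate 2 (0.0791) or Met-high replicate 1 (0.0734).

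The BRCA2 partners had differences of both signs. *Brca1* (NM_009764), a ubiquitin ligase that acts early in the choice of recombination, was at -0.33 and -1.14 in Met-low cells and at -1.34 and -2.05 in Met-high cells. Replicates differed within each population nearly as much as the populations did, and the arrays did not overlap. The difference was -0.96 (standard error 0.36, adjusted p = 0.178). *Palb2*, which joins BRCA1 to BRCA2, was at -3.30 and -2.95 in Met-low cells and at -2.46 and -1.98 in Met-high cells, so all its Met-high values were above its Met-low values. Its difference of 0.91 (standard error 0.24) had an adjusted p of 0.0947, and a further probe also gave 0.91. *Bard1*, the obligate partner of BRCA1, differed by 0.34 (adjusted p = 0.247).

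Of the MRN complex, which senses and trims broken ends, *Rad50* was at 1.30 and 1.34 in Met-low cells and at 0.25 and 0.68 in Met-high cells. The Met-low samples were both higher, with no overlap. The difference was -0.85 (standard error 0.20, adjusted p = 0.0765), with -1.11 on a further probe, and without Met-high replicate 2 it passed the test at an adjusted p of 0.0477. The other subunits gave 0.49 for the nuclease *Mre11a* (adjusted p = 0.135) and -0.40 for *Nbn* (adjusted p = 0.277). *Rad54l*, a motor protein that helps strand exchange, was at -0.66 and -0.86 in Met-low cells and at 0.05 and -0.34 in Met-high cells, both of them higher. Its difference was 0.62 (standard error 0.20, adjusted p = 0.140). The recombination genes *Xrcc2* and *Xrcc3* and the annealing protein *Rad52* differed by 0.46, 0.01 and 0.00, and a further probe of *Xrcc2* gave -0.02.

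**Figure D2:**
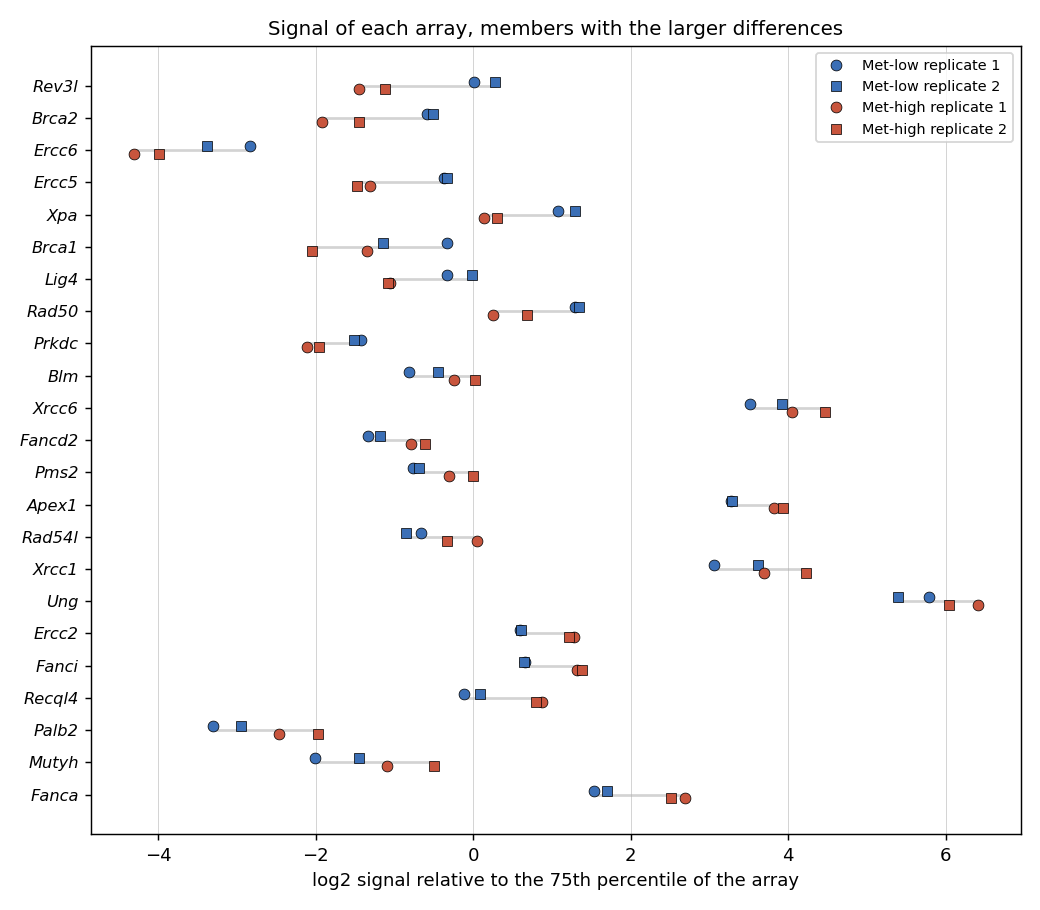
Log2 level relative to the 75th percentile of the array, on each of the 4 arrays, for the 23 repair genes that passed the test or that differed by at least 0.5 without overlap. Each point is 1 array, with colours for the populations and circles and squares for replicates 1 and 2, and *Rev3l* shows Met-low values of 0.01 and 0.27 above Met-high values of -1.45 and -1.12.

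Fanconi anaemia genes had higher means in Met-high cells in 4 of 5 cases, with a median difference of 0.56. By the adjusted p, 1 of 5 was called higher in Met-high cells (20%, against 1.95% of all genes). *Fanca* (NM_016925), a subunit of the core complex that marks crosslinked DNA, was at 1.54 and 1.70 in Met-low cells and at 2.69 and 2.52 in Met-high cells. Both Met-high samples lay well above both Met-low samples. The means were 1.62 ± 0.12 and 2.60 ± 0.12 (SD, n = 2 each), and *Fanca* was 1.98-fold higher in Met-high cells (difference 0.98, standard error 0.17, adjusted p = 0.0385). The call was lost without Met-low replicate 1 (adjusted p = 0.117), Met-low replicate 2 (0.0605), Met-high replicate 1 (0.0775) or Met-high replicate 2 (0.0513), and also after quantile normalization (0.0634).

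*Fanci* and *Fancd2* encode the pair of proteins that the core complex tags with ubiquitin. *Fanci* was at 0.66 and 0.64 in Met-low cells and at 1.31 and 1.38 in Met-high cells (difference 0.70, standard error 0.15, adjusted p = 0.0653). *Fancd2* was at -1.33 and -1.18 in Met-low cells and at -0.79 and -0.61 in Met-high cells (difference 0.56, standard error 0.17, adjusted p = 0.124). In both genes the Met-high samples were above the Met-low samples without overlap, as in 35.8% of all genes. The core complex member *Fancc* differed by 0.22, and *Fancm*, a helicase-family protein that acts at stalled forks, went the other way at -0.48 (adjusted p = 0.137).

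Among RecQ helicases, which unwind joined or stalled DNA structures, 0 of 3 passed the test in limma. Of the 3, 2 (66.7%) were higher in Met-high cells at an unadjusted p under 0.05, against 14.3% of all genes. *Wrn* was higher in Met-low cells at that level (33.3%, against 11.9% of all genes). *Recql4* was at -0.11 and 0.09 in Met-low cells and at 0.87 and 0.79 in Met-high cells. The Met-high arrays were both higher, and a further probe gave 0.94 where the probe used gave 0.85 (adjusted p = 0.0525). *Blm* was at -0.81 and -0.45 in Met-low cells and at -0.25 and 0.02 in Met-high cells, with a difference of 0.52 (standard error 0.21, adjusted p = 0.191). *Wrn* differed by -0.47 (adjusted p = 0.145), with Met-low samples higher.

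Base excision and single-strand break repair had higher means in Met-high cells in 6 of 7 genes, with a median of 0.60, and 0 passed the test in limma. At an unadjusted p under 0.05, 3 (42.9%) were higher in Met-high cells, against 14.3% of all genes. *Mutyh* (NM_001159581), a glycosylase that removes adenine placed opposite oxidised guanine, was at -2.01 and -1.45 in Met-low cells and at -1.10 and -0.50 in Met-high cells. It had no overlap but a wide spread between replicates, and its difference was 0.93 (standard error 0.29, adjusted p = 0.134). Without Met-high replicate 1 it passed the test (adjusted p = 0.0455), and so did *Palb2* (0.0401).

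*Ung*, the uracil glycosylase, was at 5.79 and 5.40 in Met-low cells and at 6.41 and 6.05 in Met-high cells (difference 0.64, adjusted p = 0.158). *Apex1*, the endonuclease that cuts at the base-free site, was at 3.27 and 3.29 in Met-low cells and at 3.82 and 3.94 in Met-high cells (difference 0.60, adjusted p = 0.0913). *Xrcc1*, the scaffold that gathers the ligation enzymes, was at 3.06 and 3.62 in Met-low cells and at 3.69 and 4.23 in Met-high cells (difference 0.62, adjusted p = 0.239). All of these had both Met-high samples above both Met-low samples. That order held in 6 of the 7 genes of the group (85.7%), against 35.8% of all genes. The ligase *Lig3* and the break sensor *Parp1* had differences of 0.44 and 0.28, and *Ogg1*, which removes oxidised guanine, was at -0.12.

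Of the mismatch repair genes, 0 of 2 passed the test in limma. At an unadjusted p under 0.05 both were higher in Met-high cells, against 14.3% of all genes. *Pms2*, a subunit of the MutL complex, was at -0.77 and -0.69 in Met-low cells and at -0.31 and -0.01 in Met-high cells (difference 0.57, standard error 0.18, adjusted p = 0.130). *Msh6*, which recognises single-base mismatches, differed by 0.40 (adjusted p = 0.185). Both were higher on each Met-high array than on either Met-low array, an order seen in 35.8% of all genes.

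End joining genes were mixed, with a median of -0.09 over 5 genes, and 0 passed the test in limma. At an unadjusted p under 0.05, 2 (40%) were higher in Met-low cells, against 11.9% of all genes. *Lig4* (NM_176953), the ligase that seals the ends, was at -0.33 and -0.01 in Met-low cells and at -1.05 and -1.08 in Met-high cells. The Met-low samples were both higher, and the difference was -0.90 (standard error 0.18, adjusted p = 0.0558). *Prkdc*, the catalytic subunit of DNA-dependent protein kinase, was at -1.42 and -1.51 in Met-low cells and at -2.11 and -1.96 in Met-high cells, and differed by -0.57 (adjusted p = 0.109). *Xrcc6*, the Ku70 subunit that binds the ends, was at 3.51 and 3.92 in Met-low cells and at 4.04 and 4.47 in Met-high cells, and differed by 0.54 (adjusted p = 0.223). So *Xrcc6* was ordered opposite to *Lig4* and *Prkdc*, whereas its Ku80 partner *Xrcc5* and the ligase cofactor *Xrcc4* differed by 0.06 and -0.09.

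Checkpoint genes had differences between -0.17 and 0.31. None of the 4 tested had an adjusted or an unadjusted p under 0.05 in limma. The sensor kinase *Atr* was at 0.27 and 0.85 in Met-low cells and at 0.25 and 0.81 in Met-high cells (difference -0.03, standard error 0.29), so the populations overlapped and the replicates differed far more than the means. *Atm*, the kinase that answers double-strand breaks, differed by -0.01 on the probe used and by -0.44 on a further probe. *Trp53bp1*, which shields broken ends, differed by -0.17. The effector kinase *Chek2* was at -1.80 and -1.34 in Met-low cells and at -1.27 and -1.25 in Met-high cells (difference 0.31, standard error 0.21, adjusted p = 0.391). *Chek1* (NM_007691) was at -5.46 and -5.24 in Met-low cells, not well above background on either array, and at -4.53 and -4.86 in Met-high cells, well above background on 1 of 2 arrays, so no difference is given for it.

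**Figure D3:**
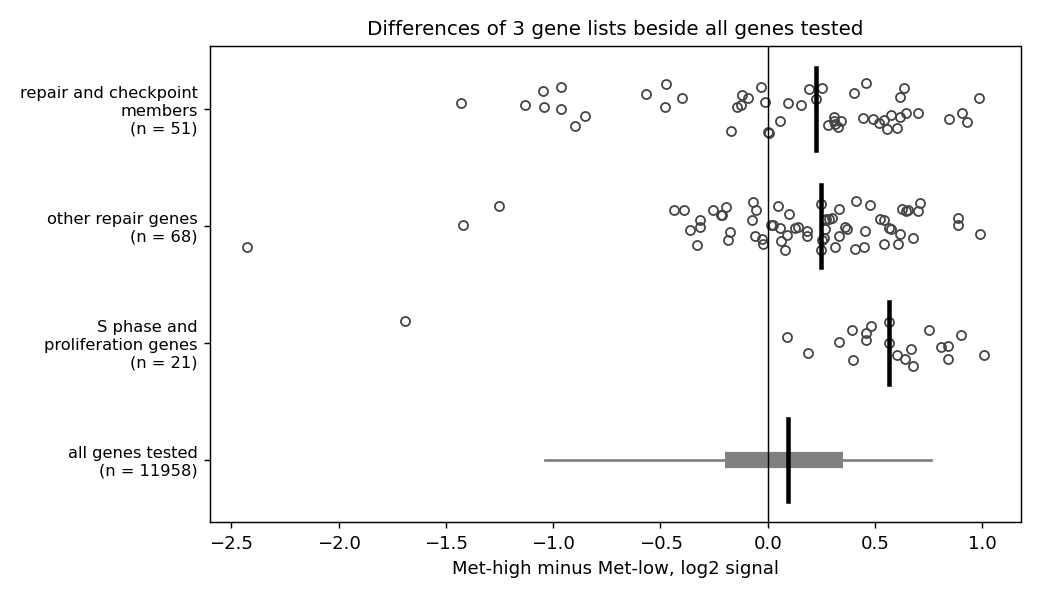
Log2 differences of the repair genes beside those of other repair genes, of S phase genes and of all 11958 genes tested. Open circles are genes, black bars medians, and for all genes the grey box spans the middle 50% and the grey line the 5th to the 95th percentile. The medians are 0.22 for the 51 repair genes, 0.25 for 68 other repair genes, 0.57 for 21 S phase genes and 0.10 for all genes.

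A longer list of 69 further genes of the same routes was examined, of which 68 were tested. The median difference was 0.25, with 21 means on the Met-low and 47 on the Met-high side. By the adjusted p, 1 gene was higher in Met-low cells (1.47%) and 2 in Met-high cells (2.94%), against 3.82% and 1.95% of all genes. *Smc6*, a subunit of the SMC5/6 complex that resolves recombining DNA, was at -0.14 and 0.22 in Met-low cells and at -2.49 and -2.28 in Met-high cells. It was 5.38-fold higher in Met-low cells (difference -2.43, standard error 0.20, adjusted p = 0.00815). *Wee1*, a kinase that holds entry into mitosis, differed by 0.89 (adjusted p = 0.0383), as did *Timeless*, a replication fork protein, also at 0.89 (adjusted p = 0.0410). Past 2-fold without passing the test were the translesion polymerase *Polk* at -1.42 (adjusted p = 0.0511) and the MutL subunit *Mlh3* at -1.25 (adjusted p = 0.158). *Mlh3* was dim, at -3.95 and -4.28 in Met-low and -4.72 and -6.02 in Met-high cells. It was well above background on only 1 Met-high array. Of this list, 1 gene was called higher in Met-high cells without Met-high replicate 1, and 0 were without Met-low replicate 1, Met-low replicate 2 or Met-high replicate 2. The count higher in Met-low cells was then 3, 2, 1 and 2.

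Many repair genes are transcribed with the replication genes of S phase, so these were measured beside them. Of 21 tested S phase and proliferation genes, 20 had their higher mean in Met-high cells (95.2%, against 59.5% of all genes). In 17 of them the populations did not overlap (81%, against 35.8% of all genes), and the median was 0.57. The 3 genes that passed the test were all higher in Met-high cells (14.3%, against 1.95% of all genes). They were the helicase subunits *Mcm5* (difference 1.01, adjusted p = 0.0415) and *Mcm7* (0.84, adjusted p = 0.0445) and the loader *Cdc6* (0.90, adjusted p = 0.0410). The gene with a higher mean in Met-low cells was *Mki67*, at 2.67 and 3.42 in Met-low cells and at 0.38 and 2.34 in Met-high cells (difference -1.69, standard error 0.66, adjusted p = 0.189). With arrays left out, the median stayed between 0.45 and 0.69, and 19 or 20 means were higher in Met-high cells. Most or all of the 3 calls above were lost in these fits, each of which left 1 array in a population. Without Met-high replicate 2, a call higher in Met-low cells appeared instead. The S phase list had the same direction as the Fanconi anaemia, RecQ, base excision and mismatch repair groups, and its part in their values was not tested.

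**Figure D4:**
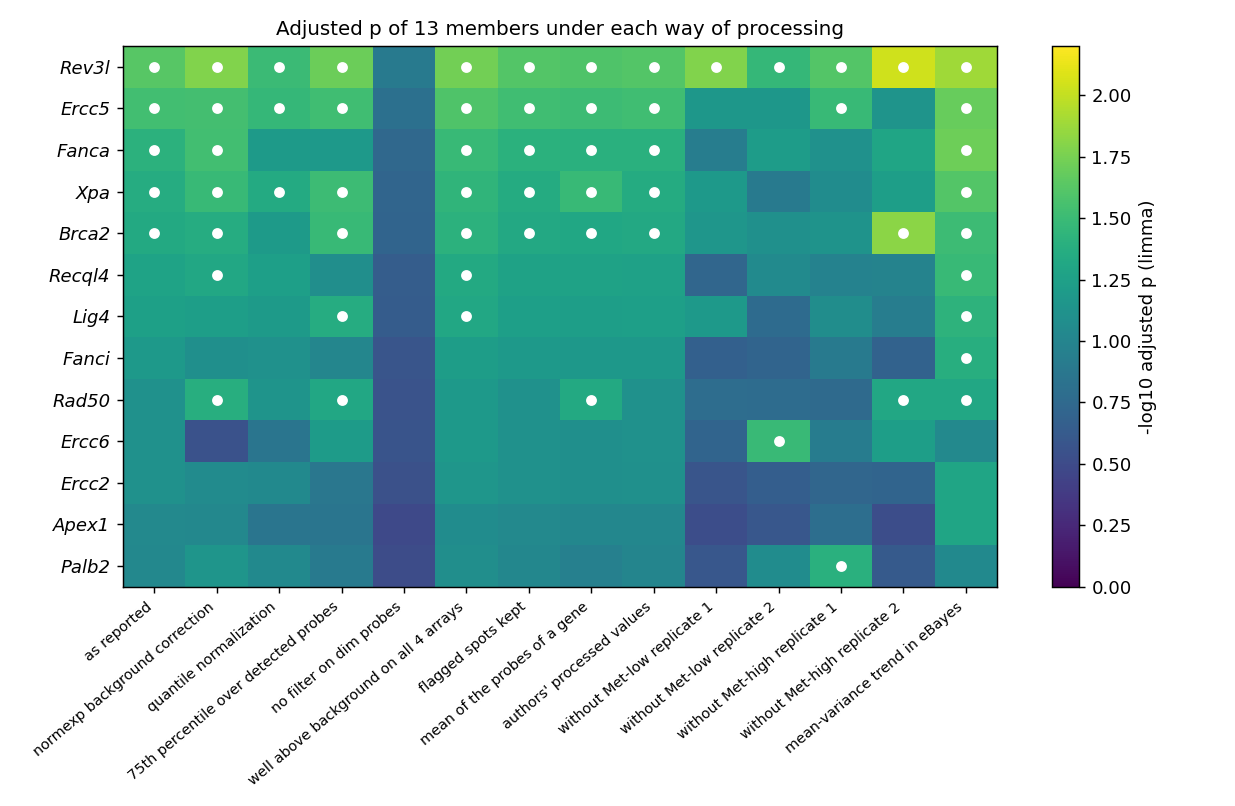
Size of the limma adjusted p, as -log10 on a colour scale, of 13 repair genes (rows) under the reported setting and 13 alternatives (columns), with a white dot where the adjusted p was under 0.05. *Rev3l* passes under 12 of the 13 alternatives, while *Fanca* passes under 6.

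Across the 13 alternatives shown in the plot of settings, *Rev3l* passed the test under 12, *Ercc5* under 9, *Brca2* and *Xpa* under 8 and *Fanca* under 6, and each kept its direction throughout. *Rev3l* missed it without a filter on dim probes (adjusted p = 0.126). In a further limma fit on all separate probes past the filter, the probe used for *Rev3l* passed (adjusted p = 0.0465). Those used for *Ercc5* (0.0534), *Fanca* (0.0666), *Xpa* (0.0726) and *Brca2* (0.0798) did not. With any array left out, fewer repair genes were called higher in Met-low cells than the 4 called with all arrays. Each such fit leaves 1 array in a population, so its calls are not set against the share of all genes. Without Met-high replicate 2 the median of the 51 genes was 0.15 instead of 0.22, with 28 instead of 32 means higher in Met-high cells, and *Rev3l*, *Brca2* and *Rad50* were the genes called. With the 75th percentile taken over detected probes, which moved the median of all genes from 0.10 to -0.05, 6 repair genes were called higher in Met-low cells and none in the other direction (9 had an unadjusted p under 0.05 there), and the median of the 51 was 0.08. Of 10 repair genes with several probes past the filter, 9 had the same sign on every probe, and *Xrcc2* was the exception.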

How the data were processed

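Met-low and Met-high B16-F10 cells were compared on 4 one-colour arrays, 2 per population. The authors deposited the scanner output with a background-corrected Cy3 intensity per spot, made with Agilent Feature Extraction (version 11.0.1.1 per the file headers, 10.7.3.1 in the submitters' processing notes), and their normalized log2 values, which equal log2 intensities set against each array's 75th percentile and centred per probe (within 0.01 for 92.0% to 100% of probes, slopes 0.9993 to 1.001). No genome build is given in the sources used here.

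From the intensities, floored at 0.01 (0 spots changed), log2 values were computed against the 75th percentile over non-control spots. Between 207 and 232 flagged spots per array were left out and spots of a probe averaged. Accessions named 27427 of 39429 probes through the RefSeq gene table, and the brightest probe per gene was used. The filter kept genes with a signal well above background in both samples of a population. limma 3.58.1 in R 4.3.3 (lmFit, eBayes) compared the populations, two-sided, with Benjamini-Hochberg adjustment over all 11958 genes and a threshold of 0.05. The p-values measure the spread between these samples, which share a slide. The number of arrays limits the precision. The fit was tested on simulated data. The members and gene lists were chosen with earlier results of these data known. Array values are given for members at an adjusted p under 0.05, members at least 0.5 apart without overlap, and the largest difference of each group, and genes of other lists are named where they passed the test or 2-fold. Alternatives covered background, scaling, filter, probes, the authors' values, arrays left out, a replicate block, a variance trend and a plain t-test, which the methods name for comparisons of 2 groups in general and not for the arrays.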

Additional observations from a re-analysis of the deposited data

How the results depend on the processing

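Leaving out each array in turn gave 3 to 5 repair genes past 2-fold higher in Met-low and 0 to 3 higher in Met-high cells. The median was then 0.15 to 0.25, and fewer repair genes were called higher in Met-low cells. Against 4 repair genes called higher in Met-low cells, there were 0 without a filter on dim probes and 0 by a plain t-test after adjustment. Against 1 higher in Met-high cells, there were 2 with normexp, 2 with the stricter filter, 3 with the variance trend, and 0 with quantile normalization, with the percentile over detected probes, without a filter and by the t-test. At an unadjusted p under 0.05 the counts were 8 and 10 without a filter, 8 and 9 by the t-test, 8 and 12 with quantile normalization and 12 and 9 with that percentile. Over all genes the calls were 457 and 233, against 7 and 0 without a filter (1462 and 1197 unadjusted), 595 and 140 with the percentile over detected probes, 539 and 392 with the trend, and 0 and 1 by the t-test (945 and 1266 unadjusted). Past 2-fold, against 4 higher in Met-low cells there were 1 with normexp, 2 with quantile normalization and 8 with the percentile over detected probes, and against 0 in Met-high cells there were 2 with quantile normalization. The median of 0.22 was 0.077 with that percentile. The cause was not tested.

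With the replicate number as a block, 11 and 17 repair genes were called (1580 and 1976 of all genes). Same-numbered arrays deviated together (r = 0.54 over genes), but the labels give only a number, with 2 pairs.

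Differences that changed sign were all small. *Atm* was 0.055 with quantile normalization and -0.14 to 0.11 with arrays left out, *Atr* -0.32 to 0.26, and *Xpc* -0.25 to 0.015. *Ddb2* was -0.051 with the percentile over detected probes and -0.064 to 0.25. *Rad52* was -0.052 with normexp, -0.15 with that percentile, -0.0068 in the authors' values and -0.074 to 0.074. *Xrcc3* was -0.025 with quantile normalization, -0.14 with that percentile, -0.00071 in the authors' values and -0.044 to 0.056. *Xrcc5* was -0.077 with quantile normalization, -0.088 with that percentile and -0.055 to 0.17. With 1 array left in a population, it was assumed to vary like the other population.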

Other observations

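Replicate 2 was above replicate 1 in both populations in 25 of the 51 repair genes, and replicate 1 was above replicate 2 in both in 10, so that 68.6% had the same order in both populations, beside 74.5% of 11947 genes tested with all 4 arrays. In 5 repair genes the gap exceeded 0.4 on the log2 scale in both populations, and these were *Brca1*, *Atr*, *Xrcc6*, *Xrcc1* and *Mutyh*.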
